A study of Mus musculus with 20 samples.

Results

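The 39 genes described here are mouse Hox genes together with Meis and Pbx genes, whose proteins bind DNA with Hox proteins. They were chosen by symbol, as genes on the array with a HoxA, HoxB, HoxC, HoxD, Meis or Pbx symbol, taken from probe sets that carry that symbol alone. They are 39 of 18193 genes: 9 of HoxA, 9 of HoxB, 7 of HoxC, 8 of HoxD, 3 Meis genes and 3 Pbx genes (Pbx2, Pbx3 and Pbx4). Of the 63 probe sets that measure them, the brightest over the 20 arrays stands for each gene.

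Blood cells of C57BL/6 mice were sorted into 10 populations, with 2 biological replicates of each and a Mouse Genome 430 2.0 array for each replicate. The 2 immature populations were KSL cells and lineage marker(-) cells, called LinNeg here. The 8 mature populations were B220(+) B lymphocytes (B), CD4(+) T lymphocytes (CD4T), CD8(+) T lymphocytes (CD8T), NK1.1+ NK cells (NK), CD3ε(+)NK1.1(+) NKT cells (NKT), Ter119(+) erythroblasts (Erythroblast), Gr-1(+) neutrophils (Neutrophil) and Mac-1(+) monocytes/macrophages (Monocyte). The labels name no treatment or altered gene for any population and give neither the tissue nor the age of the mice, and RNA equal to 3000 cells was amplified for each array. KSL is the usual name for Kit-positive, Sca-1-positive, lineage-negative cells, the fraction of bone marrow that holds the blood stem cells, and LinNeg is the wider mixture of progenitors that contains it.

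Hox genes encode homeodomain transcription factors and lie in 4 clusters, in which the order of the genes follows the order in which they act along the body axis. Hox proteins bind DNA weakly by themselves, and Pbx and Meis proteins, homeodomain proteins of the TALE class, join them on composite sites. In blood, HoxA and HoxB genes are known for expression in stem and progenitor cells that is lost on maturation, and forced expression of Hoxa9 with Meis1 produces leukaemia in mice.

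Values are the deposited intensities, which are scaled so that the trimmed mean of each array is 100, and they can be compared between arrays for 1 probe set but not between probe sets. A gene is called on in a population when both arrays read at least 100, off when both read below 100, and between otherwise. This level describes brightness and is no detection call, since none was used here. For the tests, limma was fitted to log2(intensity + 6.75) of all 20 arrays, and differences are on that scale, with their standard error (SE). A difference is called at a Benjamini-Hochberg adjusted p under 0.05, over the 14044 genes tested, and a log2 difference of at least 1. Only 20 of the 39 genes passed the filter on low values, which asks for 1 population above the median of all values, and the other 19 were low in every population. With 2 arrays in a population, an exact permutation test of 2 against 2 arrays cannot go below a p of 0.333, so the calls rest on the spread shared by all populations. In these pooled RNA samples, fewer cells that express a gene and less RNA per cell cannot be told apart.

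The arrays were checked against marker genes. The measured markers of each mature population's own type were on in that population for each of the B, T, NK, erythroid, neutrophil and monocyte lists. The stem and progenitor list (5 of 6 measured) summed to 3832 and 5085 in KSL, 1594 and 1834 in LinNeg and 83.72 to 664.8 in mature arrays. LinNeg also read 9515 and 7188 for the erythroid list and 16185 and 16641 for the primary granule list. In LinNeg replicates 1 and 2 the neutrophil list read 57.95 and 2117, the basophil and mast cell list 367.4 and 2120, and the plasma cell list 3223 and 2850. The KSL arrays also differed, with 1262 and 223.3 for the erythroid list and 9928 and 4580 for the primary granule list in replicates 1 and 2. Both NK arrays held neutrophil markers (summed to 11311 and 8917, 4 of 5 on) and monocyte markers (11521 and 9859, 4 of 4 on). The Monocyte arrays held neutrophil markers too, at 52159 and 43903 with 5 of 5 on, near the 65625 and 55789 of Neutrophil. These 2 populations were thus not cleanly separated by the markers. The part of this in levels that Neutrophil and Monocyte share was not tested. Replicates correlated at 0.953 to 0.972 over genes.

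The 2 genes that set KSL and LinNeg most clearly apart from the mature cells were Hoxa9 and Meis1, and with Hoxa5 they make up the members that were on in KSL. Their promoters are shown with that of Hoxa7, the measured gene between Hoxa5 and Hoxa9 in the cluster, which was off in all 10 populations. The sequences are those of RefSeq (GRCm38.p6), from 250 bases before to 50 bases after the annotated start, read 5′ to 3′ on the strand of the gene, with matches to the motifs named after them in capitals.
Hoxa9, chr6:52227321-52227620, minus strand: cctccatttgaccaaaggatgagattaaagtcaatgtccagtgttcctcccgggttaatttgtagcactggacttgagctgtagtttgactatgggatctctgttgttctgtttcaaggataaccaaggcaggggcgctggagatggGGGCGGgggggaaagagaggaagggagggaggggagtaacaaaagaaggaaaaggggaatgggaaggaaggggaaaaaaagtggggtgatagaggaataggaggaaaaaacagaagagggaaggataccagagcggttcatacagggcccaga
Hoxa7, chr6:52218524-52218823, minus strand: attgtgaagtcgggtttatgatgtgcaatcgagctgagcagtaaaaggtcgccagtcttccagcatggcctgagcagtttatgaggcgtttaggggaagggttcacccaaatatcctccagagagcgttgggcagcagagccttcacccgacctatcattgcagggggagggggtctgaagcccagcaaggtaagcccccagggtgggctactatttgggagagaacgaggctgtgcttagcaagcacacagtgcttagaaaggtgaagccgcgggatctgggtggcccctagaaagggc
Hoxa5, chr6:52204538-52204837, minus strand: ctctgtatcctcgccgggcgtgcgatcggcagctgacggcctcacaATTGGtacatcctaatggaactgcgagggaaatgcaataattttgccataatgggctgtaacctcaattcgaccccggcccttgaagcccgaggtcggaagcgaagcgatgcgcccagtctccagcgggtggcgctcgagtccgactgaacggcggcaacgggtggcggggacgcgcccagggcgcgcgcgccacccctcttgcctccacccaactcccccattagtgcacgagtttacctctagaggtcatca
Meis1, chr11:19018920-19019219, minus strand: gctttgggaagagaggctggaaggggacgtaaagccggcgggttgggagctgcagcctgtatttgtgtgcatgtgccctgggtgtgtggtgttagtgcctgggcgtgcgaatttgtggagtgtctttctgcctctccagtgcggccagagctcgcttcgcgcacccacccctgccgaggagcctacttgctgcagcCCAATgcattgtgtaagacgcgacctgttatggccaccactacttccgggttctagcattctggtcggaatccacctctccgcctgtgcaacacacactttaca
The motifs searched were TGATNNAT (a composite Hox and Pbx site), TGACAG (a Meis site), GGGCGG (a GC box), CCAAT and TATAAA, on both strands, and no match overlapped another in the windows shown. The Hoxa9 window held 1 GC box, those of Hoxa5 and Meis1 held 1 CCAAT each, the former on the opposite strand, and the Hoxa7 window held no match. Over all 32851 RefSeq windows of this length the shares that held them were 8.85%, 19.2%, 35.7%, 37.4% and 13.6%. Windows were given for 24 of the 39 genes, 26 windows in all, of which 3 held TGATNNAT (Hoxa2, Hoxb1 and Hoxd11) and 2 held TGACAG (Hoxa2 and Hoxa3). The median window of these genes held 17.0 CpG dinucleotides, against 7.0 over all windows, and the Hoxa9 window held 4. A match describes the letters only.

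**Figure D1:**
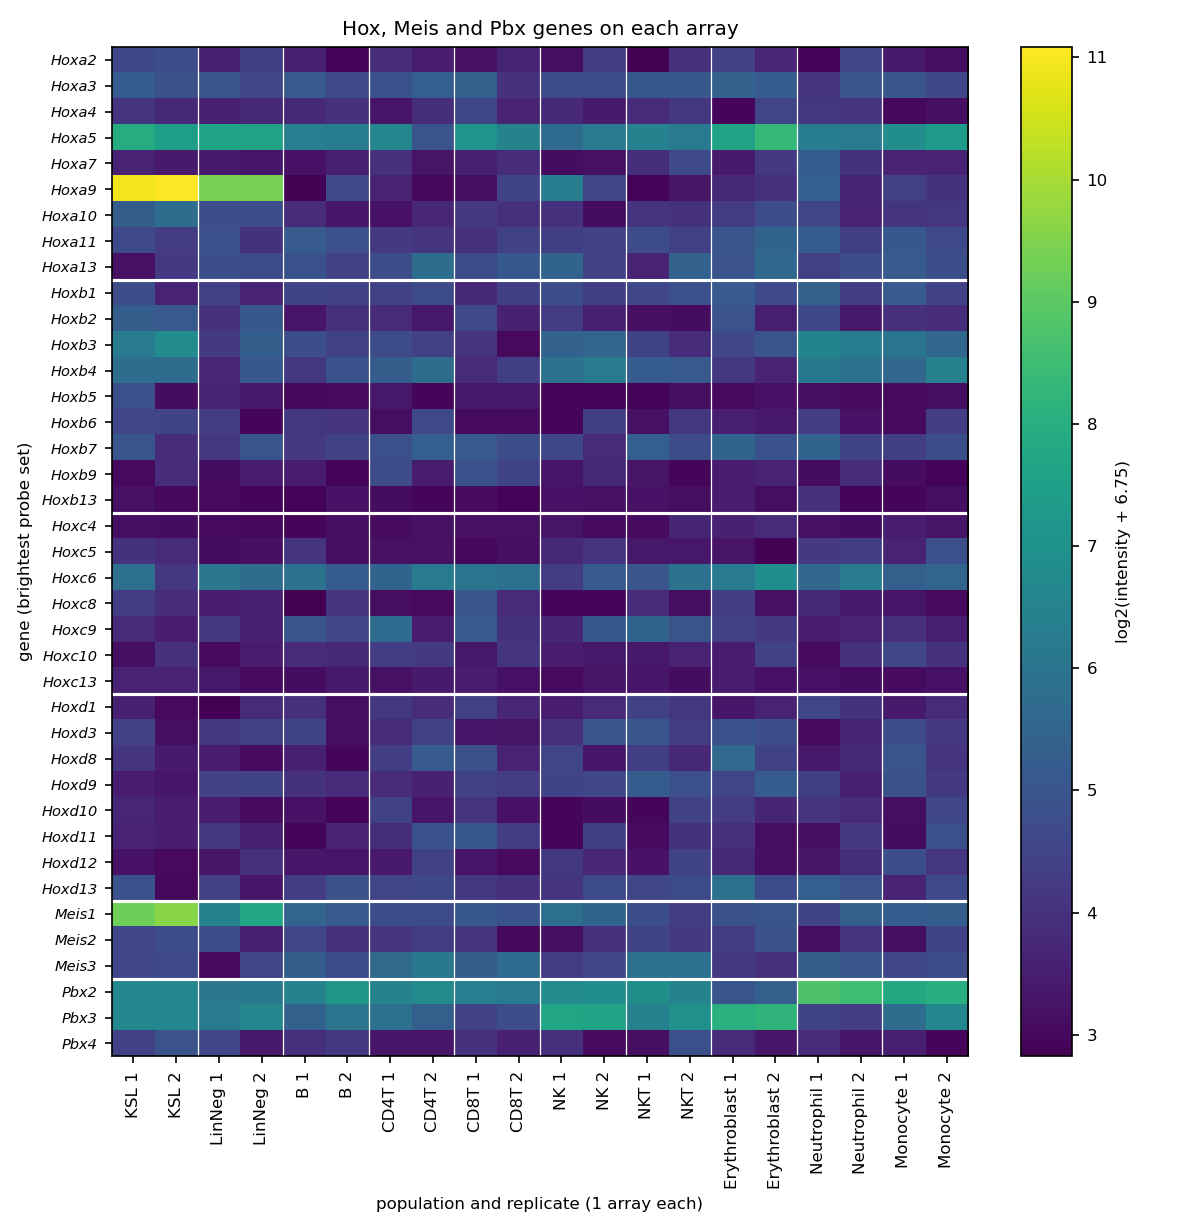
Log2(intensity + 6.75) of the 39 genes (rows, grouped by cluster and family) on each of the 20 arrays (columns, by population and replicate), with colours to be read along a row, since levels of different probe sets cannot be compared. Hoxa9 and Meis1 are bright in KSL and LinNeg only, Pbx2 in Neutrophil and Monocyte, Pbx3 in Erythroblast and NK, and most HoxC and HoxD rows stay dark throughout.

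In KSL, 3 of the 39 genes were on, namely Hoxa5, Hoxa9 and Meis1 (7.69%, where 35.0% of all genes were on). In LinNeg, 2 were on, Hoxa5 and Hoxa9 (5.13%, against 33.7% of all genes), and Meis1 lay between, with 84.46 and 206.5. The other Meis1 probe sets differed in LinNeg, where one was on, at 127.0 and 183.2, and one off, at 64.94 and 67.32. Hoxa5 was on in LinNeg by its brighter probe set and off by the other, at 33.25 and 41.61. The second Hoxa9 probe set was off in both populations, at 92.4 and 99.9 in KSL and 57.7 and 42.8 in LinNeg. HoxA was the cluster with genes on by the brightest probe set, 2 of its 9 in both populations, and these were not neighbours: in chromosomal order Hoxa7, which was off with means of 4.851 in KSL and 3.505 in LinNeg, lies between Hoxa5 and Hoxa9. None of the 9 HoxB, 7 HoxC or 8 HoxD genes was on in KSL or LinNeg. The nearest was Hoxb3, which read 66.89 and 105.9 in KSL and was between. None of the 3 Pbx genes described was on in either.

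At the 3 levels tried, no HoxC or HoxD gene was on in KSL or LinNeg, while the other counts moved. At a level of 50, 6 genes were on in KSL, with Hoxb3, Pbx2 and Pbx3 added, and 5 in LinNeg, with Meis1, Pbx2 and Pbx3 added. At a level of 200, Hoxa9 and Meis1 remained in KSL and Hoxa9 in LinNeg. In these 2 populations the highest HoxC reading was 61.59 (Hoxc6 in LinNeg) and the highest HoxD reading 23.15 (Hoxd13 in KSL). All 21 probe sets of HoxC and HoxD genes were below 100 on the 4 arrays of KSL and LinNeg, and 19 of them were below 50.

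Across the 10 populations, 32 of the 39 genes stayed below 100 on all 20 arrays, and 29 stayed below 50. In the mature populations the genes on by the brightest probe set were Pbx2 and Pbx3 in NK (33.2% of all genes on), Hoxa5 and Pbx3 in Erythroblast (24.9%), Pbx2 in Neutrophil (28.2%) and Hoxa5 and Pbx2 in Monocyte (31.2%). In NK, Pbx2 read 105.8 and 111.4 and was off by its other probe sets, at 47.26 and 45.82 and at 30.50 and 36.28. The second Pbx3 probe set was also off there, at 71.03 and 49.62. The part of the neutrophil and monocyte markers on the NK arrays was not tested. For Hoxa5 the other probe set was off in Erythroblast, at 10.22 and 5.845, and in Monocyte, at 3.527 and 1.31. None of the 39 was on in B (32.1%), CD4T (32.5%), CD8T (32.5%) or NKT (33.0%), although Pbx2 was between in B, CD4T and NKT, Pbx3 in NKT and Hoxa5 in CD8T. The F test over the 10 populations called 10 of the 20 tested genes, where it called 76.5% of all genes. These were Hoxa5, Hoxa9, Hoxa10, Hoxb3, Hoxb4, Hoxd9, Meis1, Meis3, Pbx2 and Pbx3. Without KSL replicate 2, Hoxa10 (limma adjusted p 0.0626) and Hoxd9 (adjusted p 0.0599) were no longer called.

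Hoxa9, the HoxA gene best known from progenitors and from acute myeloid leukaemia, read 1953 and 2166 in KSL and 664.0 and 660.8 in LinNeg. On the 16 mature arrays it read from 0.6007 (B replicate 1) to 71.33 (NK replicate 1). By this brightest probe set the 3 levels did not overlap: every KSL array was above every LinNeg array, and every LinNeg array above every mature one. Against the mature mean, the log2 difference was 7.02 ± 0.47 for KSL (limma adjusted p 1.7e-09) and 5.40 ± 0.47 for LinNeg (adjusted p 4.8e-08). With mature readings this low the size of these differences depends on the setting, and over 28 alternatives it ran from 4.61 to 7.89 for KSL and from 3.37 to 6.26 for LinNeg, all called. The gene was called higher in KSL than in each of the 8 mature populations, as were 2.26% of all genes, and higher in LinNeg than in each of them, as were 1.94%.

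The KSL mean of Hoxa9 was 3.109 times the LinNeg mean, but this difference, 1.62 ± 0.63 on the log2 scale, was not called (adjusted p 0.132). The log2 SD of its replicates was 0.11 in KSL and rounded to 0 in LinNeg, while among the mature populations, where it was near the bottom of the scale, the SD reached 1.25 in B, and the fit shares 1 spread. With only the 4 arrays of KSL and LinNeg in the fit the difference had an SE of 0.14 and was called (adjusted p 0.00280), and it was also called with a pseudocount of 22.9 (adjusted p 0.00577). Over its 15 alternatives the adjusted p ran from 0.00280 to 0.441. A second Hoxa9 probe set was called higher than the mature mean in KSL (2.21 ± 0.41, adjusted p 2.4e-04) and in LinNeg (1.34 ± 0.41, adjusted p 0.0132), and between KSL and LinNeg it differed by 0.86 ± 0.54 (adjusted p 0.438). On it LinNeg, at 57.7 and 42.8, overlapped the mature arrays, which reached 50.68 in Erythroblast replicate 1.

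Meis1, a cofactor that binds with both Hox and Pbx proteins and is needed for stem cell maintenance, read 613.2 and 775.3 in KSL and 84.46 and 206.5 in LinNeg. The mature arrays read 13.43 (NKT replicate 2) to 51.20 (NK replicate 1). The levels again fell in 3 steps with no overlap. By this brightest probe set the LinNeg replicates stood far apart, with the higher one in replicate 2. That array also held the neutrophil, basophil and mast cell markers, whose part in this was not tested. In LinNeg replicates 1 and 2 the other Meis1 probe sets stood closer, at 127.0 and 183.2 for one and 64.94 and 67.32 for the other. KSL exceeded LinNeg by 2.32 ± 0.39 on the log2 scale (limma adjusted p 8.8e-04) and the mature mean by 4.39 ± 0.29 (adjusted p 1.4e-09), and LinNeg exceeded the mature mean by 2.07 ± 0.29 (adjusted p 1.2e-05). It was the only one of the 20 tested genes called higher in KSL than in each of the 9 other populations, as were 0.676% of all genes. All 3 Meis1 probe sets were called in the same direction in the 3 comparisons, with KSL above LinNeg by 2.32, 2.38 and 2.11.

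**Figure D2:**
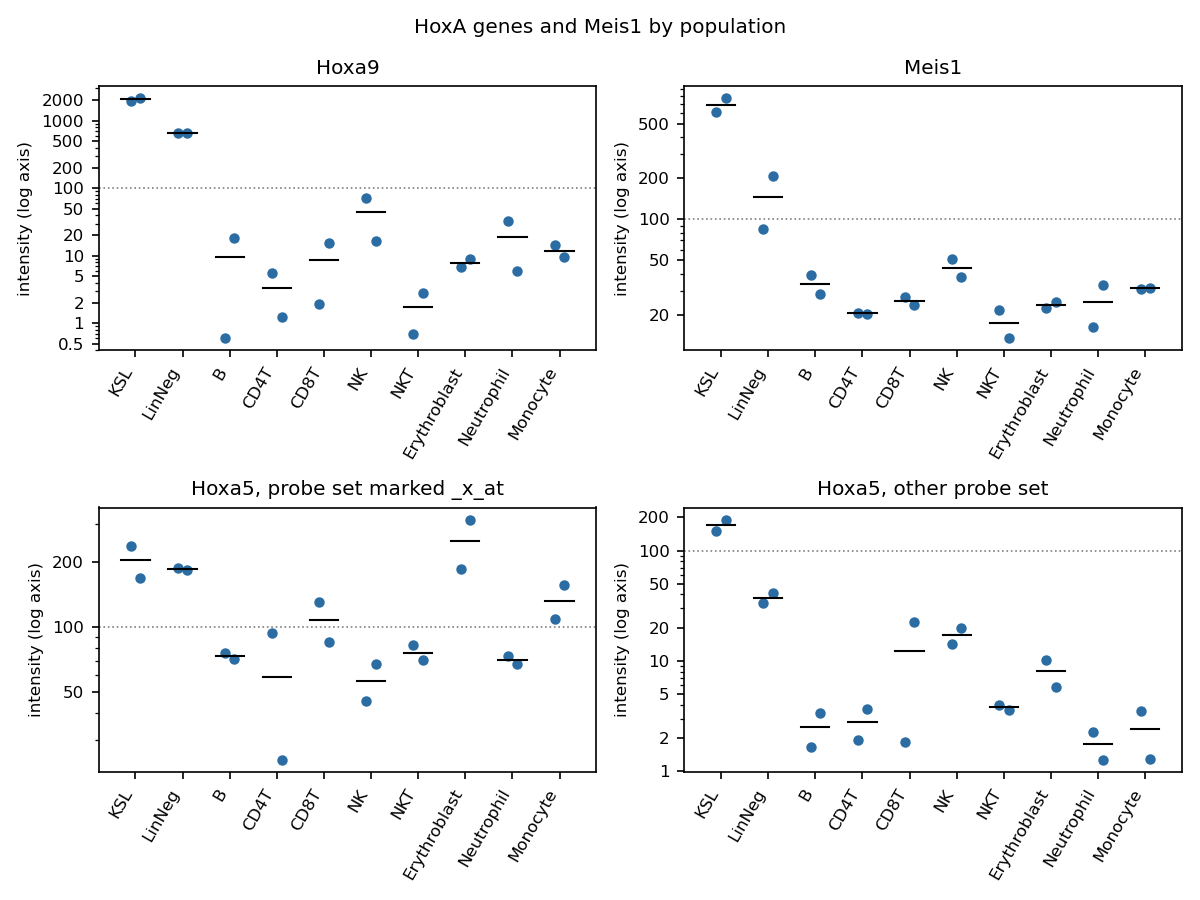
Intensity on a log axis of Hoxa9, Meis1 and the 2 probe sets of Hoxa5 in each population, with a point for each array and a bar at the mean of the 2, the dotted line at 100, and a separate axis range in each panel. Hoxa9 steps from 1953 and 2166 in KSL to 664.0 and 660.8 in LinNeg and at most 71.33 in mature cells, and the Hoxa5 panels differ from each other in LinNeg and Erythroblast.

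Hoxa5, a HoxA gene of the middle of the cluster, gave different pictures from its 2 probe sets. The brighter one, which is of the _x_at kind, meaning that some of its probes can match other transcripts, read 239.0 and 169.7 in KSL and 188.7 and 184.0 in LinNeg. Among mature cells it was on in Erythroblast, at 185.8 and 315.5, and in Monocyte, at 109.6 and 156.4. By it KSL and LinNeg overlapped and differed by 0.11 ± 0.41 on the log2 scale (limma adjusted p 0.932). The other probe set had means of 170.1 ± 29.2 (SD, n = 2) in KSL, 37.43 ± 5.92 in LinNeg and 6.335 over the mature populations. It was called higher in KSL than in LinNeg (2.00 ± 0.47, adjusted p 0.0135) and than in the mature mean (3.89 ± 0.35, adjusted p 6.9e-08). Both probe sets were on in KSL, and both immature populations were called above the mature mean by either. For LinNeg the brighter one did so by 1.02 ± 0.30 (adjusted p 0.0114), just past the size needed, and that call was lost in 9 of 28 alternatives, among them without LinNeg replicate 1 (adjusted p 0.102) and without LinNeg replicate 2 (adjusted p 0.0805). The Erythroblast level was called higher by the brighter probe set (1.58 ± 0.31, adjusted p 1.7e-04) and not by the other (0.34 ± 0.36, adjusted p 0.426). Without KSL replicate 1, the brighter probe set was no longer called in KSL against the mature mean (adjusted p 0.132, in a range of 7.5e-08 to 0.132 over 28 alternatives).

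Hoxa10, the next gene after Hoxa9 and another regulator of progenitor growth, stayed below 100 but by its brighter probe set followed the same order. It read 31.57 and 47.52 in KSL, 20.64 and 20.73 in LinNeg and 1.859 to 20.80 on mature arrays. The KSL arrays were above all 18 others, while LinNeg overlapped Erythroblast, whose second array read 20.80. KSL was higher than the mature mean by 1.58 ± 0.33 (limma adjusted p 7.1e-04) and differed from LinNeg by 0.73 ± 0.44 (adjusted p 0.375). LinNeg differed from the mature mean by 0.84 ± 0.33 (adjusted p 0.0471), under the size needed for a call. The second Hoxa10 probe set did not show this order. It read 6.158 and 6.98 in KSL and 8.033 and 1.455 in LinNeg, with a mature mean of 12.74.

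The other HoxA genes among the 39 were low. Hoxa13, at the end of the cluster and a gene of the limb tips and hindgut, read 2.474 and 11.78 in KSL against a mature mean of 24.94, and was called lower (log2 difference -1.19 ± 0.42, limma adjusted p 0.0279). Without KSL replicate 1 that difference was -0.68 (adjusted p 0.401; 0.00720 to 0.401 over 27 alternatives), so 1 array decides it. Hoxa2, Hoxa4 and Hoxa7 did not pass the filter, and Hoxa3 and Hoxa11 passed it and were called in none of the 6 contrasts of the design. Hoxa2, a hindbrain gene, read 17.95 and 20.67 in KSL and 0.3318 to 16.76 on the other 18 arrays, which did not overlap.

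Among HoxB genes, Hoxb3 and Hoxb4 are best known in blood, Hoxb4 as a gene whose forced expression expands stem cells. Hoxb3 read 66.89 and 105.9 in KSL and 11.85 and 31.20 in LinNeg. In Neutrophil it read 87.07 and 73.24, in Monocyte 58.61 and 40.02, and in NK 36.15 and 40.25. It was thus high in KSL and in the myeloid cells alike, and KSL and Neutrophil overlapped. KSL was higher than LinNeg by 1.78 ± 0.44 (limma adjusted p 0.0156) and higher than the mature mean by 1.58 ± 0.33 (adjusted p 7.3e-04), while KSL minus Neutrophil was 0.07 ± 0.44 (adjusted p 0.910). The call against LinNeg was lost without KSL replicate 2 (adjusted p 0.196), without LinNeg replicate 1 (adjusted p 0.251), with a pseudocount of 1.22 (adjusted p 0.0670) and with the mean of both its probe sets (adjusted p 0.153), in a range of 0.00292 to 0.251 over 14 alternatives. With that mean the difference from the mature populations was 0.97 (adjusted p 0.0214), under the size needed for a call. Its second probe set did not pass the filter, with a mean of 19.60 in KSL and 15.08 in LinNeg.

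Hoxb4 read 47.70 and 47.25 in KSL and 6.338 and 26.96 in LinNeg. It read 52.91 and 69.02 in NK, 64.33 and 54.08 in Neutrophil, 40.52 and 79.45 in Monocyte and 11.25 and 5.831 in Erythroblast. KSL lay above LinNeg on both arrays and within the range of the mature cells. KSL minus LinNeg was 1.37 ± 0.45 (limma adjusted p 0.0710) and KSL minus the mature mean 0.59 ± 0.34 (adjusted p 0.174), and neither was called. The former ran from 0.69 to 2.05 over 14 alternatives. It was called in 2 of them, among these with the mean of both probe sets (1.07, adjusted p 0.0440). Erythroblast was called lower than the other mature populations (-1.44 ± 0.34, adjusted p 0.00115), which the second probe set did not show (0.15 ± 0.36, adjusted p 0.736). The RefSeq annotation places Hoxb4 within the extent of Hoxb3, and readings of overlapping genes are uncertain.

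Hoxb2 read 31.39 and 28.54 in KSL, 9.206 and 26.86 in LinNeg and 1.816 to 23.95 on mature arrays. KSL stood above all other arrays by a narrow margin. It was higher than the mature mean by 1.38 ± 0.42 (limma adjusted p 0.0117), a call lost without KSL replicate 1 (adjusted p 0.104) or 2 (adjusted p 0.0797), in a range of 0.00515 to 0.104 over 27 alternatives. The other 6 HoxB genes were called in none of the 6 contrasts, and 4 of them (Hoxb5, Hoxb6, Hoxb9 and Hoxb13) did not pass the filter. Hoxb5, a gene used as a reporter of long-lived stem cells, read 21.76 and 1.891 in KSL, 6.008 and 3.652 in LinNeg and 0.6939 to 3.557 on mature arrays, so 1 KSL array stood apart.

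**Figure D3:**
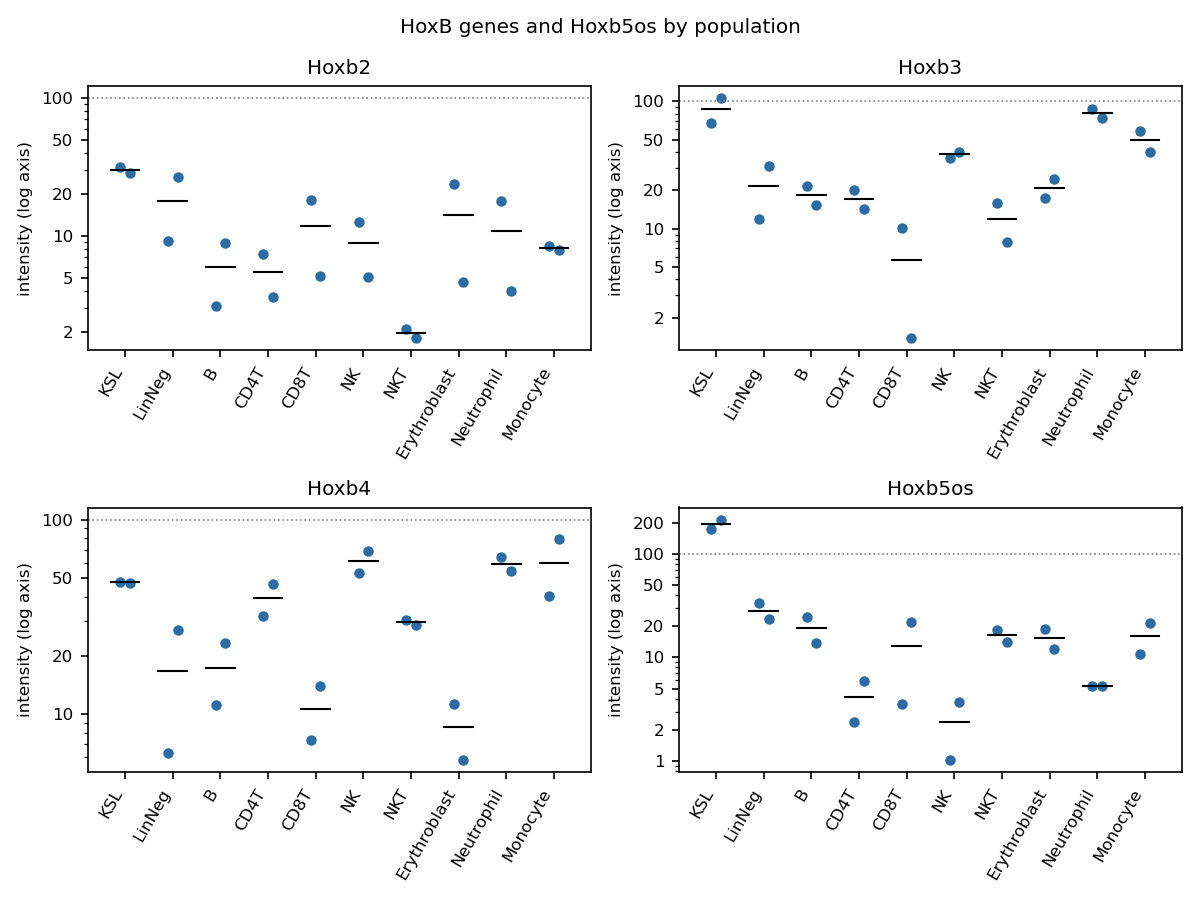
Intensity on a log axis of Hoxb2, Hoxb3, Hoxb4 and the noncoding RNA Hoxb5os in each population, with a point for each array, a bar at the mean, a dotted line at 100 and a separate axis range in each panel. Hoxb3 and Hoxb4 reach their KSL level in Neutrophil as well, whereas Hoxb5os is above 100 in KSL alone.

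Noncoding RNAs of the clusters were set beside the genes. Of 6 listed, 3 were measured and 2 were tested, Hoxb5os and Hoxd3os1. Hoxb5os, which by RefSeq overlaps Hoxb5 and Hoxb6, read 173.9 and 215.6 in KSL and 33.30 and 23.47 in LinNeg, and its mature means ran from 2.360 to 19.19. Both KSL arrays were above all other arrays. KSL exceeded LinNeg by 2.53 ± 0.47 (limma adjusted p 0.00209) and the mature mean by 3.60 ± 0.35 (adjusted p 1.8e-07). In these contrasts 2.95% and 15.8% of all genes were called higher. Hoxd3os1 was called in neither, at 0.18 ± 0.45 (adjusted p 0.887) and 0.29 ± 0.34 (adjusted p 0.534). Whether the Hoxb5os probes also read Hoxb5 or Hoxb6 transcripts was not tested.

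In HoxC and HoxD the few calls rested on low readings. Hoxc9, a gene of the trunk, read 4.123 to 11.26 on the KSL and LinNeg arrays, 4.287 to 46.03 on lymphoid arrays and 4.479 to 8.635 in Neutrophil and Monocyte, and lymphoid minus myeloid was 1.08 ± 0.36 (limma adjusted p 0.0164). That call was lost in 7 of 24 alternatives. Hoxd9 differed between populations by the F test (adjusted p 0.0185), with 4.114 and 3.221 in KSL, 30.93 and 21.62 in NKT and 16.58 and 30.54 in Erythroblast. For Hoxd9, KSL minus the mature mean was -0.99 ± 0.30 (limma adjusted p 0.0130), just under the size needed. With a pseudocount of 1.22 it was called lower (-1.59, adjusted p 0.00761). Hoxc6 was highest in Erythroblast, with 69.54 and 107.1 by its brightest probe set, of the _x_at kind, and 76.6 and 102.0 by the next. Against the other mature populations the former gave 0.99 ± 0.38 (adjusted p 0.0321), just under the size needed, and the latter was called (1.14 ± 0.39, adjusted p 0.0181). Hoxc6 was called there in 10 of 25 alternatives, with adjusted p from 0.00298 to 0.280. All HoxD genes stayed at or below 52.40 on all 20 arrays.

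Over the members as a group, KSL minus LinNeg called 2 of the 20 tested genes, Hoxb3 and Meis1, both higher in KSL (5.30% of all genes were called, 2.95% higher and 2.35% lower). None was lower by limma, and at an unadjusted p under 0.05 there were 5 higher and 1 lower. The median difference of the 20 was 0.25, against 0.01 over all genes. KSL minus the mature mean called 7, of which 6 were higher (Hoxa5, Hoxa9, Hoxa10, Hoxb2, Hoxb3 and Meis1) and 1 lower (Hoxa13), where 22.7% of all genes were called, 15.8% higher and 6.87% lower, and the median was -0.20 against 0.06. LinNeg minus the mature mean called 4, with Hoxa5, Hoxa9 and Meis1 higher and Meis3 lower, where 21.6% of all genes were called, 14.6% higher and 6.99% lower, and the median was -0.17 against 0.04. These contrasts share the KSL, LinNeg or mature arrays, and a gene that passed the filter through KSL had to be high there, so the shares describe the list and test nothing. Both KSL arrays were above the other 18 for 6 of the 39 genes (Hoxa2, Hoxa9, Hoxa10, Hoxb2, Hoxc13 and Meis1), or 15.4%, against 4.14% of all genes, and of these Hoxc13 reached only 5.805. Both LinNeg arrays were above the 16 mature arrays for 3 (Hoxa9, Hoxb5 and Meis1), or 7.69%, against 7.17% of all genes.

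**Figure D4:**
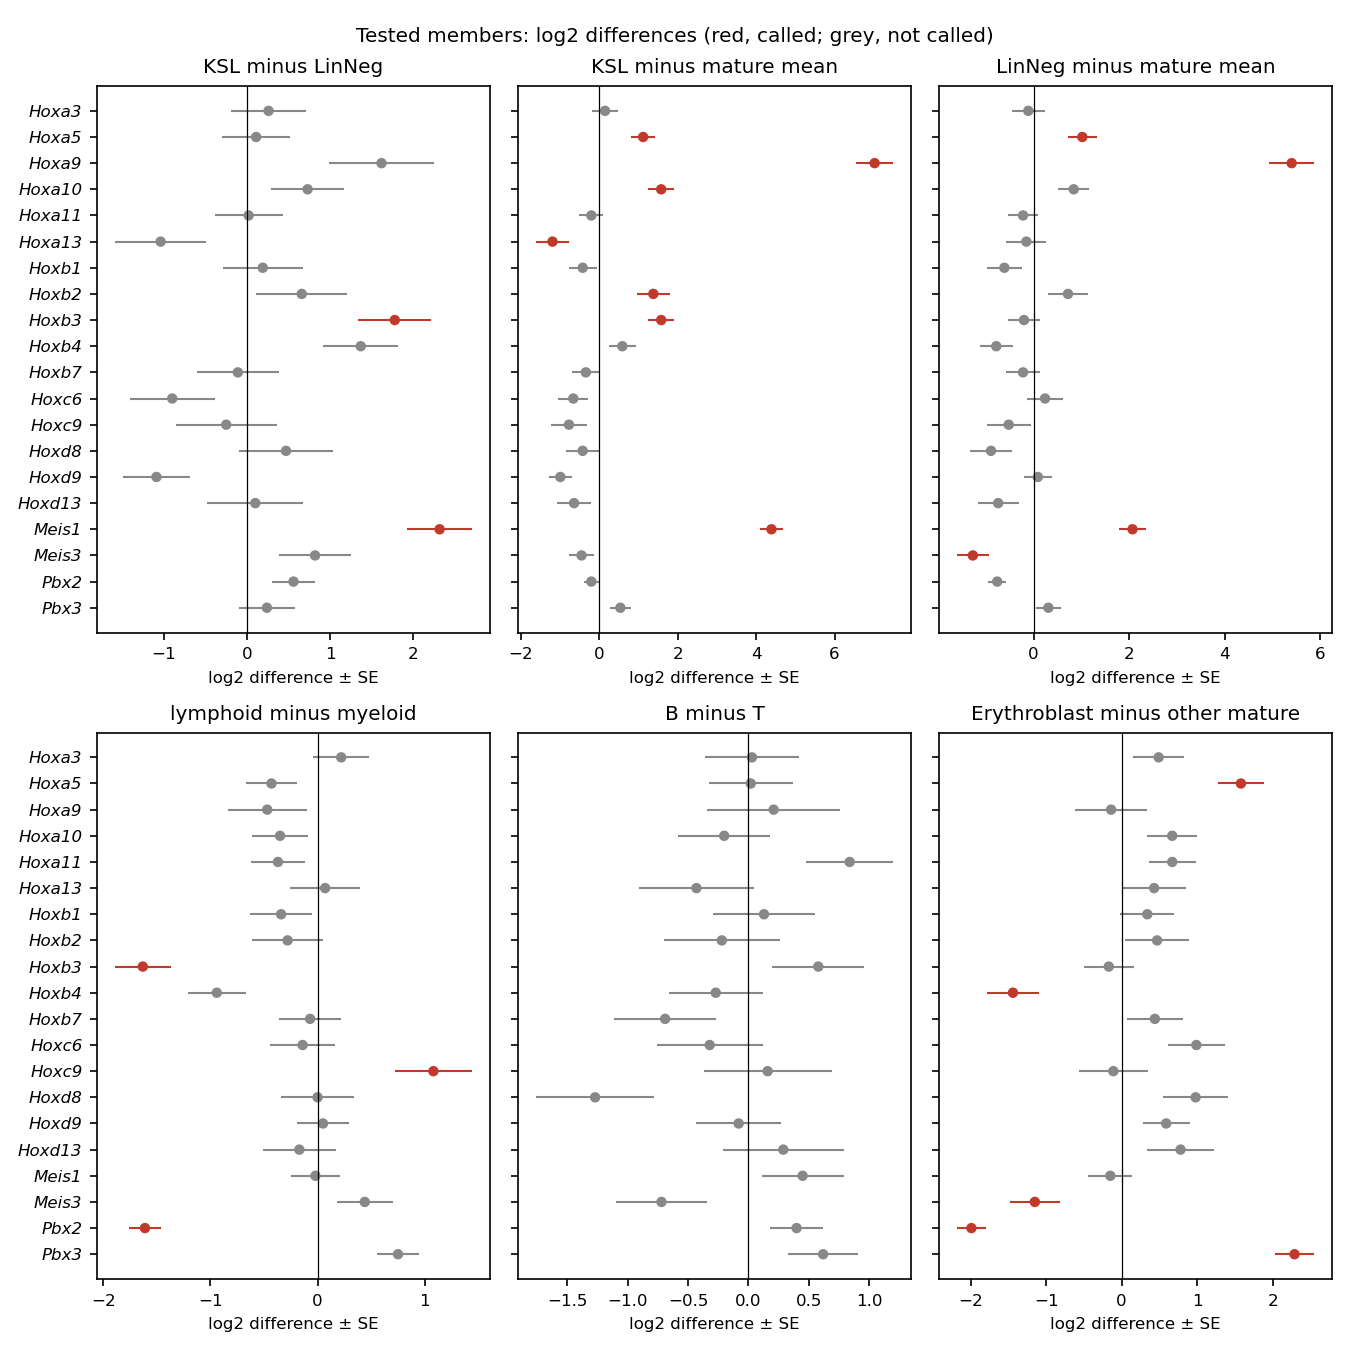
Log2 differences with their SE for the 20 genes that passed the filter, in a panel for each of the 6 contrasts, with called differences in red and the others in grey. Hoxa9 and Meis1 stand far to the right in both contrasts of immature against mature cells, and Pbx2 and Pbx3 lie on opposite sides in the Erythroblast panel.

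Pbx2 and Pbx3 had their highest levels in mature populations, and not in the same ones. Pbx2, a partner of Hox proteins expressed in many tissues, read 427.9 and 362.9 in Neutrophil and 224.7 and 248.0 in Monocyte. It read 96.46 and 95.57 in KSL, 61.84 and 64.14 in LinNeg and 24.53 and 33.30 in Erythroblast. By this brightest probe set the myeloid arrays were above all others and the Erythroblast arrays below all others. A sign of RNA quality, the Gapdh signal at the 3′ end over that at the 5′ end, was lowest on the Neutrophil and Monocyte arrays (2.36 to 3.34) and highest in Erythroblast (5.86 and 6.10), with 3.43 to 5.71 on the others. The same ratio of Actb was 1.34 to 1.48 on the myeloid arrays, 2.73 and 2.23 in Erythroblast and 1.68 to 2.72 on the others. The part of RNA quality in the differences of Pbx2, and of the other genes between these populations, was not tested. Lymphoid minus myeloid was -1.61 ± 0.15 (limma adjusted p 2.3e-08), in a contrast that called 29.4% of all genes, 17.4% higher and 11.9% lower, and 3 of these 20 (Hoxc9 higher, Hoxb3 and Pbx2 lower, with a median of -0.15 against 0.10). All 3 Pbx2 probe sets were called in that direction, at -1.61, -1.18 and -1.54. Neutrophil was called higher than each population but Monocyte, as were 4.39% of all genes, and Neutrophil minus Monocyte was 0.72 (adjusted p 0.0561). Erythroblast minus the other mature populations was -1.99 ± 0.19 (adjusted p 2.8e-08). The second probe set was called there too (-1.35 ± 0.24, adjusted p 7.0e-05) and the third was not (-0.64 ± 0.35, adjusted p 0.121). On the third, Erythroblast, at 7.951 and 18.87, lay above NKT, at 2.793 and 3.216.

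Pbx3, the Pbx gene most often tied to Hoxa9 in leukaemia, showed another order. It read 260.6 and 288.8 in Erythroblast and 204.7 and 187.0 in NK, then 81.60 and 117.3 in NKT, 96.42 and 94.64 in KSL and 68.04 and 93.74 in LinNeg. By this brightest probe set it was lowest in CD8T, with 14.92 and 20.62, and Neutrophil, with 15.73 and 13.14. Erythroblast and NK were each above all other populations on both arrays, Erythroblast the higher, and NK minus Erythroblast was -0.47 ± 0.34 (limma adjusted p 0.247). Erythroblast exceeded the other mature populations by 2.29 ± 0.26 (adjusted p 2.0e-07), and by 1.94 ± 0.34 with the second probe set (adjusted p 6.3e-05). That contrast called 46.0% of all genes, 17.5% higher and 28.4% lower, and 5 of these 20, with Hoxa5 and Pbx3 higher and Hoxb4, Meis3 and Pbx2 lower, and a median of 0.45 against -0.13. The second probe set placed NK (60.32 ± 15.1) beside NKT (64.29 ± 7.38), not above it. Its lowest mean was in Monocyte, at 11.66 and 9.853, where the brightest probe set read 48.29 and 94.68. On the second, CD8T read 6.013 and 22.89 and Neutrophil 16.69 and 19.70. KSL and LinNeg did not differ by a call in Pbx2 (0.56 ± 0.26, adjusted p 0.220) or Pbx3 (0.24 ± 0.34, adjusted p 0.776). Pbx4 was at most 23.60 on any array.

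**Figure D5:**
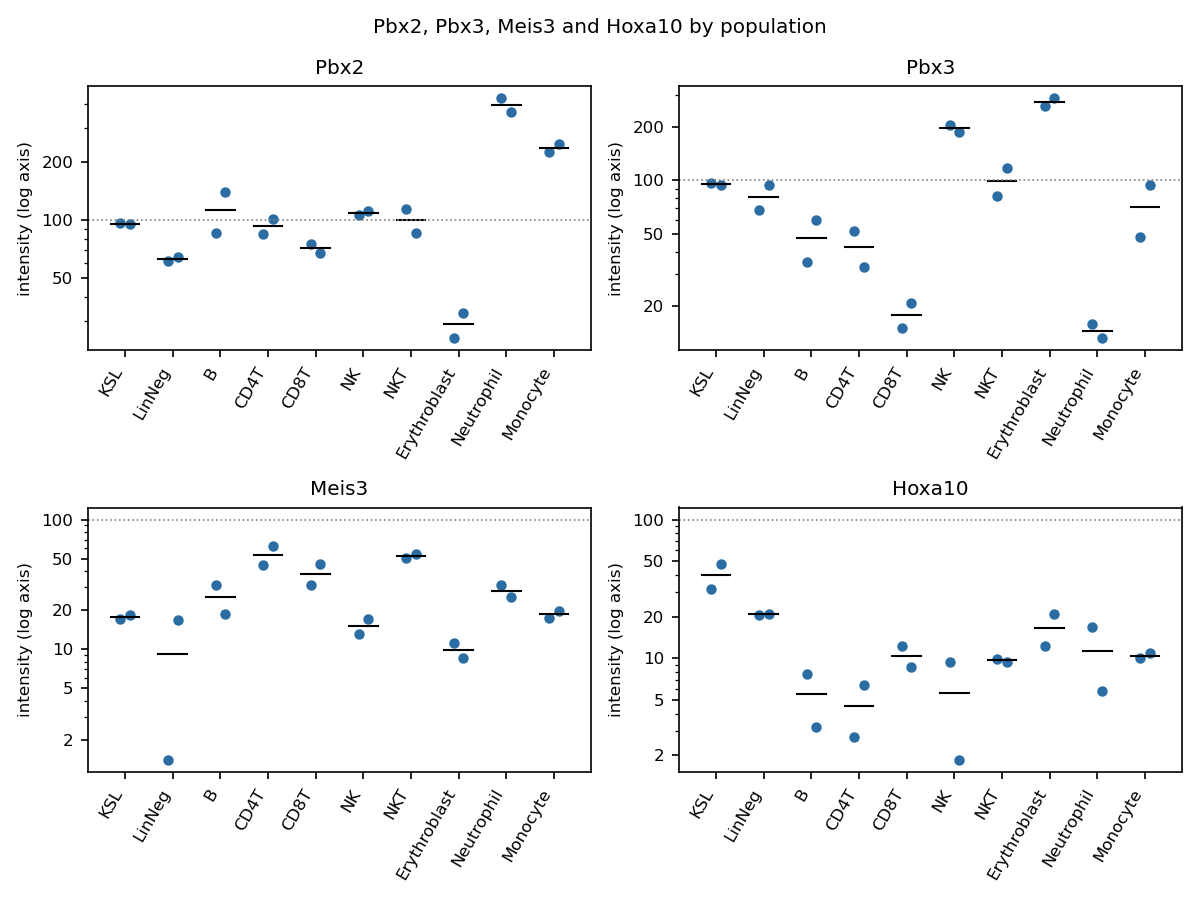
Intensity on a log axis of Pbx2, Pbx3, Meis3 and Hoxa10 in each population, with a point for each array, a bar at the mean, a dotted line at 100 and a separate axis range in each panel. Pbx2 is highest in Neutrophil (427.9 and 362.9) and lowest in Erythroblast, where Pbx3 is highest (260.6 and 288.8).

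Meis3, a relative of Meis1 studied mainly in the hindbrain, had its highest means in T-lineage cells. It read 44.31 and 62.85 in CD4T, 31.32 and 45.29 in CD8T and 50.23 and 54.18 in NKT, but 13.06 and 17.10 in NK. B, at 31.42 and 18.83, overlapped CD8T, and B minus T was -0.72 ± 0.38 (limma adjusted p 0.221) and not called. Meis3 read 31.21 and 25.33 in Neutrophil and 17.46 and 19.73 in Monocyte. In KSL it read 17.04 and 18.42, in LinNeg 1.405 and 16.89 and in Erythroblast 11.21 and 8.583. LinNeg was lower than the mature mean by limma (-1.27 ± 0.33, adjusted p 0.00395), but without LinNeg replicate 1 the difference was -0.50 (adjusted p 0.378; 4.5e-04 to 0.378 over 27 alternatives). Erythroblast minus the other mature populations was -1.15 ± 0.33 (adjusted p 0.00488), a call lost without Erythroblast replicate 2 (adjusted p 0.0628) and, by size, with the pseudocount of 22.9 (-0.72, adjusted p 0.00262). Meis2 stayed at or below 22.25 on all arrays.

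Between mature lineages, Hoxb3 also followed the myeloid cells, with lymphoid minus myeloid at -1.63 ± 0.26 (limma adjusted p 2.3e-05), or -0.93 and not called with the mean of both probe sets. NK was the lymphoid population nearest to them in Hoxb3, with 36.15 and 40.25 against 1.385 to 21.57 on the other lymphoid arrays, and its arrays held neutrophil and monocyte markers, whose part in this was not tested. For Hoxb4, lymphoid minus myeloid was -0.94 ± 0.27 (adjusted p 0.00554), just under the size needed for a call, and it was called in 6 of 24 alternatives, at -1.19 without NK on the lymphoid side and at -1.01 to -1.16 in 5 that kept NK. B minus T called none of the 20 genes by limma, where 12.8% of all genes were called, 5.82% higher and 7.01% lower, and 2 of the 20 were higher and 1 lower at an unadjusted p under 0.05. The largest was Hoxd8 at -1.27 ± 0.49 (adjusted p 0.0832).

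The genes around this system were taken as lists. Of 15 genes described as targets of Hoxa9 or Meis1, Meis1 included, all were tested, and 9 were higher in KSL than in the mature mean and 1, Ccnd3, lower (15.8% and 6.87% of all genes), with a median of 3.49 against 0.06 over all genes. Among them Flt3, a cytokine receptor of progenitors, read 651.2 and 1201 in KSL and 181.6 and 290.1 in LinNeg, and Hlf, a transcription factor of stem cells, read 747.7 and 1631 in KSL and 99.19 and 233.4 in LinNeg. In LinNeg against the mature mean 10 were higher and 1, Hif1a, lower (14.6% and 6.99% of all genes), with a median of 2.18 against 0.04. KSL minus LinNeg called Flt3, Erg, Hlf and Meis1 higher and Pf4, a megakaryocyte chemokine, lower (2.95% and 2.35% of all genes). The median there was 0.73 against 0.01. Myb, a progenitor regulator, did not separate KSL (2497 and 2205) from LinNeg (2837 and 2271). Of the 15, Flt3, Cd34 and Pf4 are also among the marker genes used to check the populations.

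Of 23 regulators of Hox clusters, 20 were tested. None was called between KSL and LinNeg by limma, with 1 higher and 2 lower at an unadjusted p under 0.05 and a median of 0.10 against 0.01. In KSL against the mature mean 6 were higher (Men1, Mllt1, Ash2l, Bmi1, Ezh2 and Kdm6b; 15.8% of all genes) and none lower (6.87%), with 13 higher and 1 lower at an unadjusted p under 0.05 and a median of 0.51 against 0.06. The list mixes activators such as Men1, a partner of the MLL methyltransferase, with Polycomb repressors such as Ezh2 and Bmi1, and both kinds were among the 6. Kmt2a, which encodes MLL, read 270.0 and 258.3 in KSL and was not called against the mature mean (adjusted p 0.966). In LinNeg 4 of the 20 were higher (Mllt1, Ash2l, Bmi1 and Ezh2), near the share of all genes (14.6%), with a median of 0.41 against 0.04.

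Of 11 other TALE homeobox genes 6 were tested. Tgif2, a repressor of TGF-beta targets, read 206.5 and 175.5 in KSL and 185.9 and 140.6 in LinNeg and was called higher than the mature mean in both (1.74 ± 0.24, limma adjusted p 9.1e-06, and 1.51 ± 0.24, adjusted p 3.9e-05). Tgif1, its relative, read 88.53 and 115.1 in KSL and was called there only. Of all genes, 15.8% were called higher than the mature mean in KSL and 14.6% in LinNeg. None was called between KSL and LinNeg by limma, and 0 had an unadjusted p under 0.05.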

How the data were processed

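Total RNA was extracted with ISOGEN and amplified in 2 rounds with the Two-Cycle kit, and each of the 20 samples was hybridised to 1 array, per the labels. The authors deposited 1 intensity on a linear scale for each of 45101 probe sets on each array. From the values, each array is scaled to a trimmed mean of 100 without the lowest and highest 2%, and the summarising software is not given in the sources used here. Scaling fixes the mean of each array, so a change that moved most genes would not be seen, and 2 rounds of amplification favour the 3′ ends of transcripts.

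Probe sets were named through GEO's platform annotation: 34945 carried 1 symbol, 932 several and 9160 none, and 64 control probe sets were left out. The 3 probe sets with a Hox symbol among several were not used. The probe set with the highest mean log2 value stood for each gene. Deposited intensities were turned into log2(intensity + 6.75), the pseudocount being the 25th percentile of all values, which understates changes of dim genes. Genes needed a population mean above the median of all values (22.9). Tests used limma 3.58.1 in R 4.3.3 (lmFit and eBayes with trend, 10 populations in 1 factor, 10 residual and 8.46 prior degrees of freedom) and were tested on simulated data. Adjusted p-values are Benjamini-Hochberg values over 14044 genes. Arrays have no read depth, and their number limits the precision.

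The genes and lists were chosen with earlier results of these data known. Values array by array are given for genes on in at least 1 population or called in at least 1 contrast, 12 in all, and the other 27 are given by range and count, except where 1 was singled out after its values were seen (Hoxa2, Hoxa7, Hoxb5, Hoxc6, Hoxc13, Hoxd8, Hoxd9 and Hoxd13). All 39 symbols matched RefSeq, and other genes of these families are not reported here. Replicate numbers did not pair the samples: over the 45 pairs of populations, same-numbered arrays deviated from their population means with correlations of -0.09 to 0.21, of which 1, that of KSL with LinNeg, exceeded 0.1. Alternatives changed the pseudocount, filter, scaling, choice of probe set, replicate block and arrays used. Added after seeing the data were tests of each probe set, of all 45 pairs and without NK on the lymphoid side.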

Additional observations from a re-analysis of the deposited data

How the results depend on the processing

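The calls of Hoxa9 and Meis1 against the mature mean, of Meis1 between KSL and LinNeg, and of Pbx2 (lymphoid against myeloid, Erythroblast) and Pbx3 (Erythroblast) kept their direction and their side of the threshold under all alternatives run, and no result changed sign among those called. Counts of called members that moved by over 1.5 times follow, beside the values in the report, and the cause was not tested except that the strictest filter left 5 members to test. With a pseudocount at the 5th percentile, KSL minus LinNeg called 1 higher and KSL minus the mature mean 2 lower. With a pseudocount at the median, KSL minus the mature mean called 3 higher and 0 lower, LinNeg minus the mature mean 0 lower, lymphoid minus myeloid 0 higher and Erythroblast minus the other mature populations 1 lower. With the filter at the 75th percentile, the counts were 1 higher for KSL minus LinNeg, 3 higher and 0 lower for KSL minus the mature mean, 0 lower for LinNeg minus the mature mean, 0 higher and 1 lower for lymphoid minus myeloid, 1 lower for Erythroblast and 5 for the F test. With no filter, B minus T called 1 lower (Hoxb9). Quantile normalization called 5 higher in Erythroblast, and array median centring 4 higher there and 0 higher for lymphoid minus myeloid. The mean over all probe sets called 1 lower for lymphoid minus myeloid and 1 higher in Erythroblast. Members on at a level of 50 were 6 in KSL and 5 in LinNeg, and at 200 there was 1 in LinNeg.

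With the replicate number as a block, B minus T called 1 gene lower (Hoxd8, limma adjusted p 0.0494), and the block changed no other call except the F test of Hoxd8 (adjusted p 0.0370). Leaving out each array in turn gave these ranges of called members: KSL minus LinNeg 1 to 4 higher and 0 to 0 lower, KSL minus the mature mean 4 to 6 higher and 1 to 2 lower, LinNeg minus the mature mean 2 to 3 higher and 0 to 2 lower, lymphoid minus myeloid 0 to 1 higher and 2 to 3 lower, B minus T 0 to 0 higher and 0 to 1 lower, Erythroblast 2 to 4 higher and 2 to 3 lower, and the F test 8 to 11. Members on ran from 3 to 4 in KSL and from 2 to 3 in LinNeg. A lone array is then assumed to vary like the other populations. Of the single-gene results, 3136 stayed on their side of the threshold, 40 fell below it and 51 rose past it. Dim probe sets limit what can be said of most HoxC and HoxD genes.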
